A study of Homo sapiens with 4 samples.

Results

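The ankyrins and the membrane proteins that bind them were examined in RNA recovered with the fragile X protein FMRP. A named set of 10 genes was taken: the ankyrin genes ANK1, ANK2 and ANK3, the L1 family adhesion genes L1CAM, NFASC, CHL1 and NRCAM, and ANKRD11, ANKRD17 and ANKHD1. Every probe set annotated to exactly 1 of these symbols was included, which gave 35 probe sets of 54675 on the array, for 10 of the 19775 genes with a probe set of their own. The last 3 genes encode proteins with ankyrin repeats that are neither ankyrins nor known ankyrin partners, so they are described separately. The tested RNA came from 2 anti-FLAG immunoprecipitates (IP) of FlagHA-tagged FMRP, washed at 300 mM KCl, and was compared with total RNA of 2 starting lysates. All 4 samples came from FlpIn T-REx HEK293 cells, an established line of human embryonic kidney origin, carrying a stable FMRP transgene that 1 µg/ml doxycycline had switched on for 16 h. Each sample was hybridized to its own Affymetrix array, and signals are on a log2 scale set by the authors, so a difference of 1 is a 2-fold difference. Only the tagged line was used in these samples, and RNA recovered without FMRP was not analysed here.

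Ankyrins are adaptor proteins of the plasma membrane. Their repeat domain holds the cytoplasmic tails of ion channels, transporters and cell adhesion molecules, and another domain binds spectrin, which joins them to the actin cytoskeleton. In neurons this links L1 family adhesion molecules and sodium channels to the axon initial segment and the nodes of Ranvier, and ANK2 is a gene linked to autism. FMRP is an RNA-binding protein that regulates translation, and its loss causes fragile X syndrome. The cells used here are not neurons, so the levels below are those of a kidney-derived line.

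The arrays of a group resembled each other (Pearson's r across probe sets 0.989 for the IP and 0.992 for the lysate arrays) more than arrays of different groups (0.949 to 0.959). Of 7 HEK293 marker genes, 6 lay above the array medians of 4.67 to 4.71 on both lysate arrays, and NEFM, at a mean of 3.73, did not. Of 10 measured markers of other cell types, 3 lay above them (HBB, SNAP25 and RBFOX3). The probe sets of FMR1 itself had differences of -0.69 (called lower, adjusted p = 0.0291) and -0.42 (not called, adjusted p = 0.114), and whether they detect the transgene was not analysed here. No label says whether the replicates were grown as separate cultures, so p-values measure only the spread between these samples, which may be technical, and 2 arrays per group limit the precision.

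Most probe sets of the 10 genes had a higher signal in the IP. Of the 35, 21 were higher at an adjusted p of at most 0.05 and 14 were not called, against 14.5% of all 54613 non-control probe sets called higher (limma, Benjamini-Hochberg adjustment over all of them). By group, 11 of 16 ankyrin probe sets, 4 of 10 of the L1 family and 6 of 9 of the other ankyrin-repeat genes were higher. No member was called lower, against 14.1% of all probe sets. None was lower at an unadjusted p under 0.05 or with an intensity-dependent robust spread estimate either. The called probe sets belonged to 8 of the 10 genes, and ANKHD1 and CHL1 had none. NFASC was called only on probe sets with both group means under the array medians. NRCAM was called only on 216959_x_at, whose lysate mean of 4.01 lay under them. The median change of the 35 was 0.85, against 0.06 over all probe sets. Both IP arrays lay above both lysate arrays for 27 of the 35, where 34.9% of all probe sets did so, and below them for 1, where 28.6% did so. These shares describe the set and are no test of it, because probe sets of a gene share their transcript and the genes were chosen with results of these data known.

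**Figure D1:**
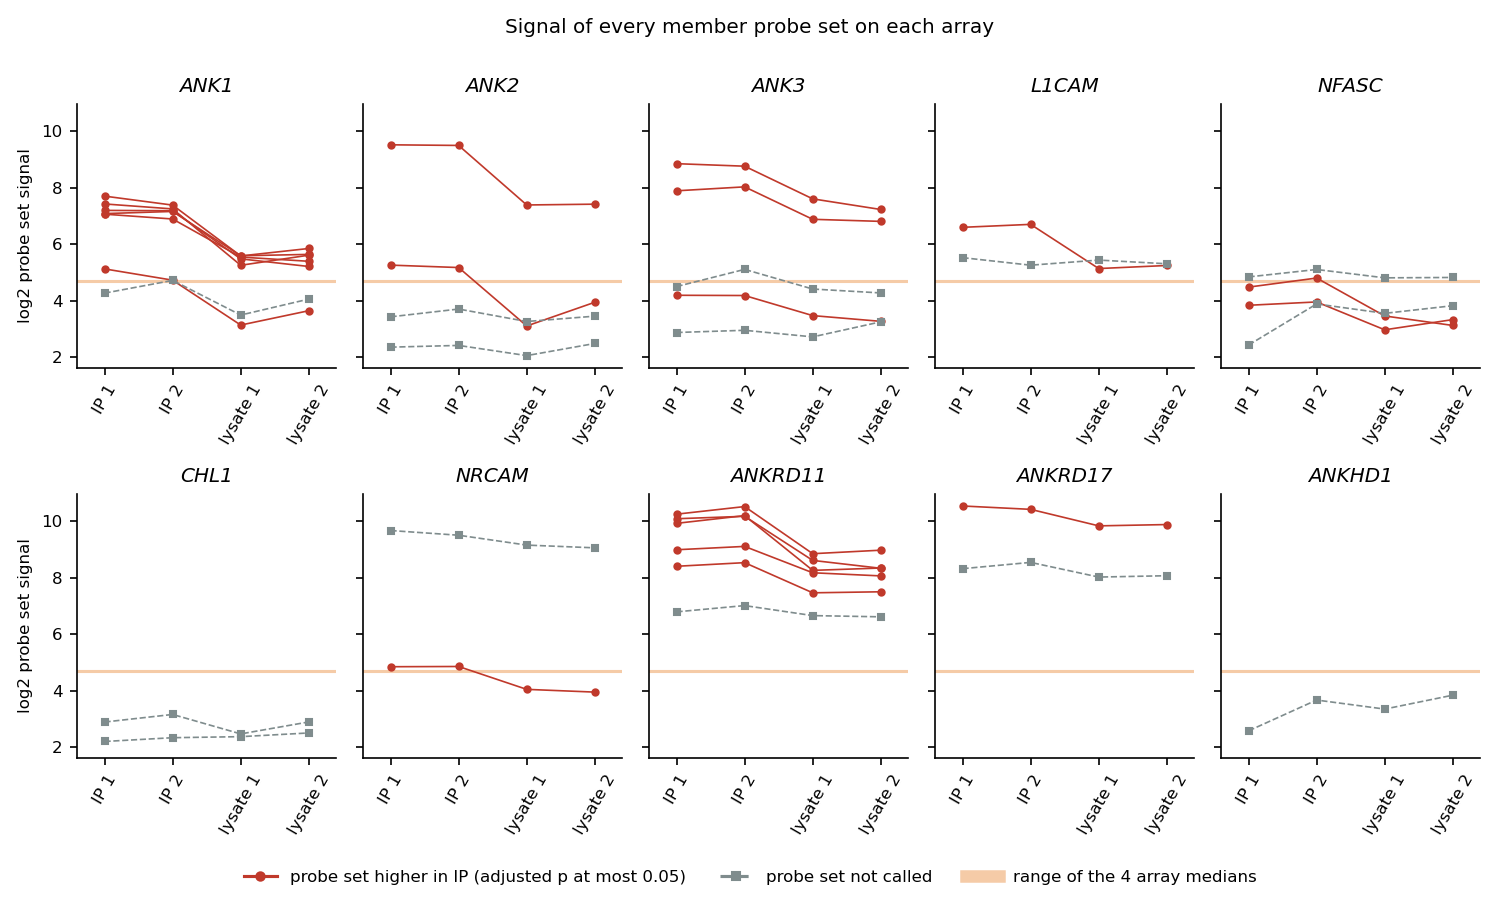
Log2 probe set signal (vertical axis) of every probe set of the 10 genes on the 2 IP and the 2 lysate arrays (horizontal axis); each line joins the 4 values of 1 probe set. Red circles mark the 21 probe sets called higher in the IP, grey squares the 14 not called, and the band the array medians of 4.67 to 4.71; levels of different probe sets cannot be compared. Most grey lines lie low, and both CHL1 probe sets and the ANKHD1 probe set lie below the band on all 4 arrays.

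Level bore on how often a probe set was called. Of the 20 with a mean over the 4 arrays at or above 4.69, the median of all probe sets, 15 were higher, against 24.3% of all probe sets at such levels. Of the 15 below it, 6 were higher, against 4.82% there. The table gives no detection calls, so values under the array medians have no known floor. For probe sets with a group mean there, only the difference of the deposited log2 signals is given, which is not to be read as a fold of RNA. For 11 of the 35 probe sets both group means lay under the array medians, and 3 of these were called.

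The 16 probe sets of the ankyrin genes had a median change of 1.45, and 11 were higher and 5 were not called. The median was 0.93 for the 9 probe sets of ANKRD11, ANKRD17 and ANKHD1 and 0.41 for the L1 family. The ankyrin median leaned on ANK1, which had 7 of the 16 probe sets and a median of 1.53. For ANK2 and ANK3 the medians were 0.95 and 0.82, so the order of the groups depends on ANK1. ANK2 encodes ankyrin-B, which is known from heart and from axons. Its brightest probe set, 202920_at, read 9.52 and 9.50 in the IP, against 7.39 and 7.42 in the lysate. The replicates of each group thus lay close together, with both IP arrays far above both lysate arrays. The rise was 4.29-fold (log2 change 2.10 ± 0.14 SE, 95% interval 1.76 to 2.44, adjusted p = 0.00217), and 0.218% of all probe sets had a larger change. A dimmer ANK2 probe set, 202921_s_at, read 5.26 and 5.18 in the IP and 3.11 and 3.95 in the lysate, a change of 1.69 (adjusted p = 0.00893). The remaining ANK2 probe sets, 216195_at and 232606_at, lay between 2.07 and 3.71 on all arrays. Their groups overlapped, and their differences were 0.21 (95% interval -0.21 to 0.63) and 0.12 (95% interval -0.35 to 0.58).

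ANK1 encodes ankyrin-R, the ankyrin of the red cell membrane, whose mutations cause hereditary spherocytosis. Of its 7 probe sets 6 were higher, with changes of 1.50 to 1.90, and on all 7 both IP arrays stood above both lysate arrays. The brightest, 208353_x_at, read 7.70 and 7.39 in the IP, against 5.59 and 5.85 in the lysate, a 3.54-fold rise (log2 change 1.82 ± 0.18 SE, adjusted p = 0.00239). The probe set 205390_s_at read 7.09 and 7.16 in the IP and 5.60 and 5.64 in the lysate, a 2.84-fold rise. All 6 called ANK1 probe sets carry the suffix _x or _s, which marks probes that can also bind other transcripts. The only ANK1 probe set without such a suffix, 240363_at, read 4.28 and 4.73 in the IP, against 3.50 and 4.06 in the lysate. Its change of 0.72 was not called (95% interval 0.08 to 1.35, adjusted p = 0.092), and its mean lay under the array medians in both groups. What the suffixed probe sets of ANK1 bind beside ANK1 was not tested. Without ANK1, 15 of the remaining 28 probe sets were higher, with a median of 0.68.

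ANK3 encodes ankyrin-G, the organizer of the axon initial segment. Its probe set 206385_s_at read 8.85 and 8.76 in the IP, against 7.61 and 7.23 in the lysate. This was a 2.62-fold rise (log2 change 1.39 ± 0.18 SE, adjusted p = 0.004). The probe set 209442_x_at read 7.89 and 8.03 in the IP and 6.88 and 6.81 in the lysate, a 2.16-fold rise. On both of these bright probe sets, which also carry a suffix, the IP arrays stood above the lysate arrays. A dim unique probe set, 238786_at, was also higher, at 4.20 and 4.19 in the IP against 3.48 and 3.28 in the lysate, a change of 0.82 (adjusted p = 0.0118). That call was lost without lysate replicate 2 (0.71, adjusted p = 0.0777). The other ANK3 probe sets were not called, with differences of 0.46 (207950_s_at, adjusted p = 0.205) and -0.07 (239726_at, adjusted p = 0.837). Without IP replicate 1 the change of 207950_s_at was 0.76 and was called (adjusted p = 0.0353).

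The L1 family encodes immunoglobulin-class adhesion molecules of axons whose cytoplasmic tails bind ankyrins. Of 10 probe sets 4 were higher and 6 were not called, with a median change of 0.41, and only 4 had a mean at or above the median of all probe sets. L1CAM, which acts in axon growth and whose mutations cause X-linked hydrocephalus, was called on only 1 of its probe sets. On 204584_at it read 6.60 and 6.71 in the IP, against 5.14 and 5.25 in the lysate, a 2.74-fold rise (log2 change 1.46 ± 0.14 SE, adjusted p = 0.00235). On 204585_s_at it read 5.53 and 5.26 in the IP, against 5.44 and 5.31 in the lysate. The groups of the suffixed probe set overlapped, and its change was 0.02 (95% interval -0.39 to 0.42).

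NRCAM, an adhesion molecule found at nodes of Ranvier, was not called on 204105_s_at, where it read 9.67 and 9.50 in the IP, against 9.15 and 9.06 in the lysate. These groups did not overlap, and the change of 0.48 (95% interval 0.11 to 0.85) missed the threshold at an adjusted p of 0.0632. It passed with dim probe sets left out (adjusted p = 0.0151) and with the intensity-dependent robust spread (adjusted p = 0.00561). The dimmer NRCAM probe set 216959_x_at read 4.86 and 4.86 in the IP and 4.05 and 3.96 in the lysate, a change of 0.85 (adjusted p = 0.00819). That call was lost without lysate replicate 2 (adjusted p = 0.06).

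NFASC encodes neurofascin, which gathers sodium channels at nodes and initial segments, and CHL1 encodes the close homolog of L1. The probe set of NFASC with the highest mean, 230242_at, read 4.85 and 5.11 in the IP and 4.82 and 4.83 in the lysate, a change of 0.16 (95% interval -0.24 to 0.55). On 213438_at the gene read 4.49 and 4.81 in the IP, against 3.47 and 3.13 in the lysate, a change of 1.35 (adjusted p = 0.00549). On 243645_at it changed by 0.75 (adjusted p = 0.0277). The call on 243645_at was lost without IP replicate 1, IP replicate 2 or lysate replicate 1 (0.80, 0.69 and 0.57), and with the intensity-dependent robust spread (adjusted p = 0.0529). On 214799_at NFASC read 2.44 and 3.89 in the IP, so the IP arrays disagreed, against 3.56 and 3.83 in the lysate. That change of -0.53 was not called, but without IP replicate 2 it was -1.26 and called lower (adjusted p = 0.0135). Both CHL1 probe sets lay low. On 204591_at CHL1 read 2.90 and 3.17 in the IP and 2.48 and 2.90 in the lysate, and on 234583_at it read 2.21 and 2.35 in the IP and 2.38 and 2.51 in the lysate. Neither change was called (0.34 and -0.17), and at these signals the arrays cannot tell low from absent CHL1 RNA.

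**Figure D2:**
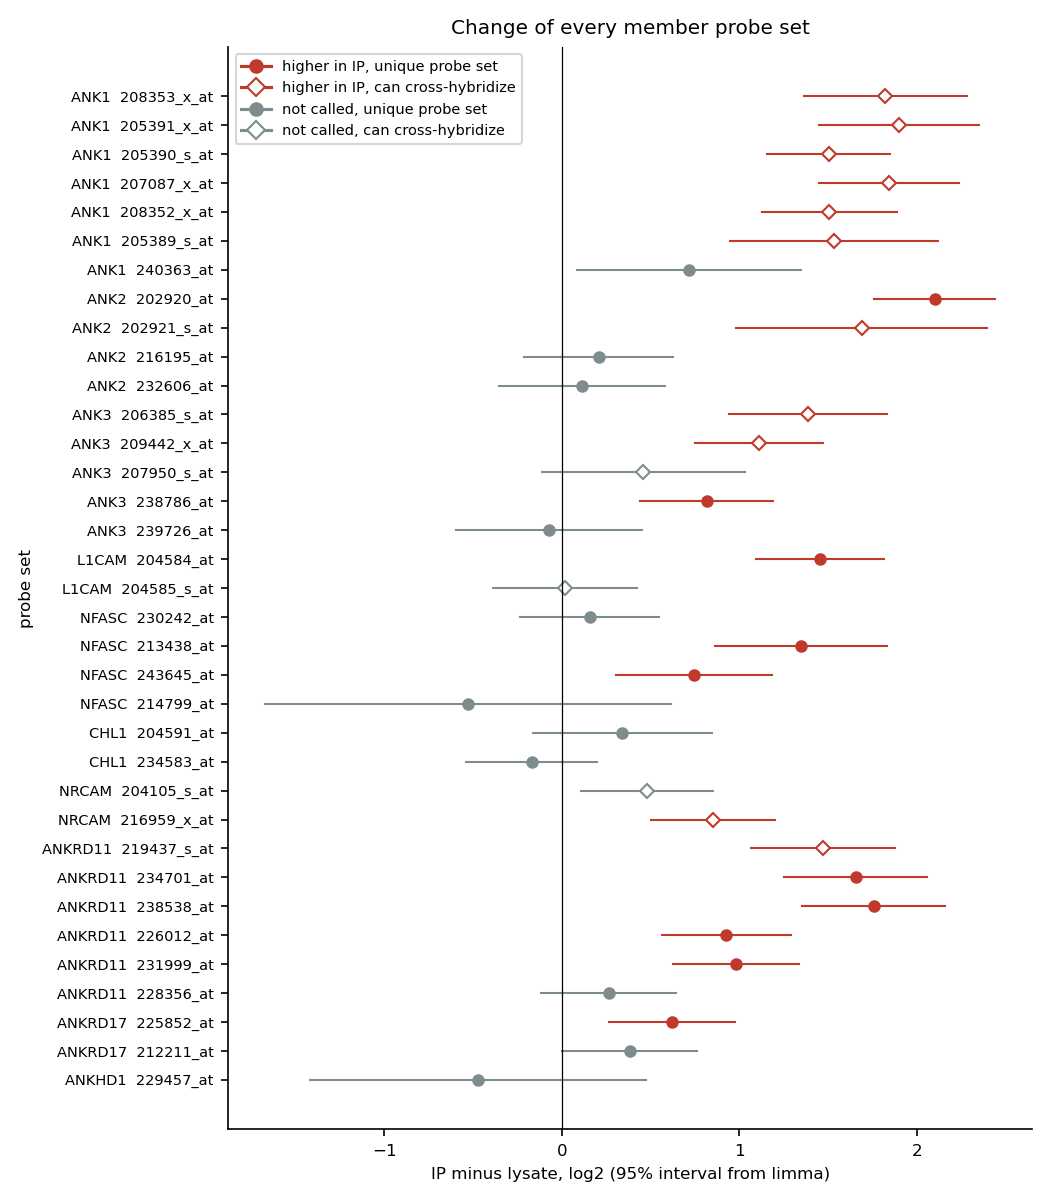
IP minus lysate change on the log2 scale (horizontal axis) with its 95% interval for each probe set (vertical axis), with the ankyrin genes on top, the L1 family below them and the other ankyrin-repeat genes last. Red marks the 21 probe sets higher in the IP and grey the 14 not called; open diamonds are probe sets that can cross-hybridize. ANK2 202920_at has the highest change, 2.10, and probe sets of ANK2, ANK3, L1CAM, NFASC and ANKRD11 differ in their changes, those of NFASC from -0.53 to 1.35.

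ANKRD11, ANKRD17 and ANKHD1 encode large ankyrin-repeat proteins with other roles. ANKRD11 is a nuclear regulator of chromatin and transcription whose loss of 1 copy causes KBG syndrome. Of its 6 probe sets 5 were higher, and all 6 had means above the median of all probe sets. The probe set 219437_s_at read 10.25 and 10.52 in the IP, against 8.85 and 8.97 in the lysate, a 2.77-fold rise (log2 change 1.47 ± 0.16 SE, adjusted p = 0.00284). The unique probe set 238538_at read 9.92 and 10.20 in the IP and 8.26 and 8.34 in the lysate, a 3.38-fold rise. The unique probe set 234701_at rose 3.15-fold, and 226012_at and 231999_at rose 1.90-fold and 1.98-fold. ANKRD11 thus rested on unique probe sets for 4 of its 5 calls, and 1 of these was lost without lysate replicate 2 (226012_at, adjusted p = 0.0537). On 228356_at the gene read 6.79 and 7.02 in the IP, against 6.66 and 6.62 in the lysate, a change of 0.27 that was not called (95% interval -0.11 to 0.64).

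ANKRD17 and ANKHD1 are close relatives that carry a KH domain, an RNA-binding fold, beside their repeats. ANKRD17 read 10.54 and 10.42 in the IP on 225852_at, against 9.83 and 9.88 in the lysate, a 1.54-fold rise (log2 change 0.62 ± 0.14 SE, adjusted p = 0.0246). That call was lost with any 1 of the 4 arrays left out, where the change was 0.56 to 0.68. On 212211_at the difference of ANKRD17 was 0.38 and was not called (adjusted p = 0.124), but it passed with dim probe sets left out (adjusted p = 0.0403). The only probe set with ANKHD1 as its single symbol, 229457_at, read 2.59 and 3.68 in the IP, against 3.36 and 3.85 in the lysate. The IP arrays of ANKHD1 lay more than 1 unit apart, and its change of -0.47 was not called (adjusted p = 0.423). Without IP replicate 2 it was -1.02 and called lower (adjusted p = 0.0422).

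Whether probe sets of 1 gene changed by different amounts was tested directly. For each gene with several probe sets, the change of every other probe set was set against that of the probe set with the highest mean, within each array. Of 25 such pairs in 9 of these genes, 6 differed, a share near the 21.3% of 21316 pairs over all genes, so it is no result about these genes. In 12 of the pairs both probe sets lay at or above the median of all probe sets. When only such pairs were fitted, 4 of the 12 and 3636 of all 10369 differed, again no result about these genes. In the fit over all pairs, 2 of the 12 differed. In L1CAM, 204585_s_at changed by 1.44 less than 204584_at (adjusted p = 0.0155), and in ANKRD11, 228356_at by 1.20 less than 219437_s_at (adjusted p = 0.0145). The other 4 pairs called in the fit over all pairs, in ANK2, ANK3 and NFASC, each had a probe set with both group means under the array medians. Such a probe set is not shown to be above background, and what its difference from a brighter one means for the transcript was not tested. In NFASC the dim 213438_at changed more than the brighter 230242_at (1.35 against 0.16). Its own call as higher has the same limit. No pair of any gene was called without lysate replicate 1 or without lysate replicate 2 (limma), where 5950 and 6055 pairs, 10 and 9 of them in these genes, had an unadjusted p under 0.05.

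**Figure D3:**
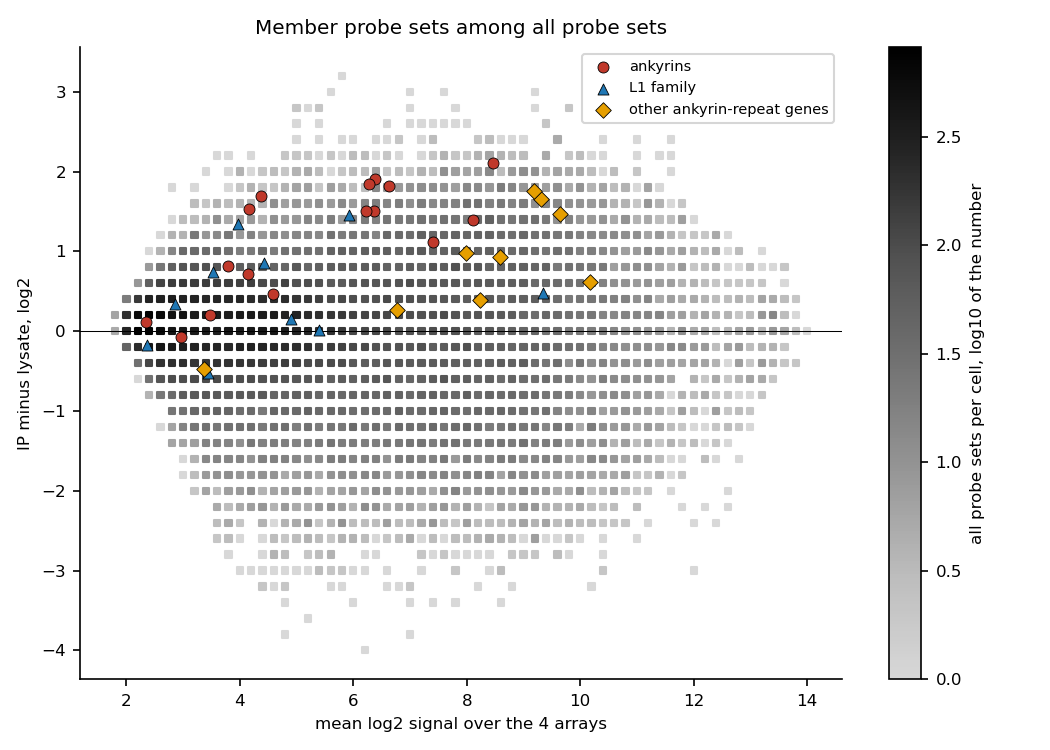
Mean log2 signal over the 4 arrays (horizontal axis) and IP minus lysate change on the log2 scale (vertical axis). Grey squares count all 54613 non-control probe sets in cells of the plane (darker is more, log scale), and coloured symbols are the 35 probe sets of the 10 genes. Above a mean of 4.69 the 20 member probe sets have changes of 0.02 to 2.10 on the authors' scale, and below it member changes spread around and above 0.

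All changes depend on how the arrays are scaled to each other. The hybridization controls had medians of 9.78 and 9.94 on the IP arrays, against 9.32 and 9.44 on the lysate arrays. Centring each array on these 18 controls, chosen after seeing the data, moved the median change of all probe sets to -0.42. There 15 members were higher and 1 lower (CHL1 234583_at, -0.65), against 5.48% of all probe sets higher and 32.2% lower. Centring on 42 controls that include poly-A controls moved the median change to -0.45, with 0.811% of all probe sets higher and 11.2% lower. Then 4 members were higher and none lower: 3 ANK1 probe sets (1.32, 1.40 and 1.34) and ANK2 202920_at (1.60). Of all calls, 50.7% were higher on the authors' scale, against 14.6% and 6.74% under these centrings. ANKRD17 and NRCAM had no called probe set under either centring. The order of the changes among probe sets does not depend on such a centring, but their signs do. L1CAM 204585_s_at, at 0.02 on the authors' scale, was at -0.46 with hybridization control centring, and NFASC 230242_at went from 0.16 to -0.32.

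Other genes of the membrane skeleton and of ankyrin binding were examined with 1 probe set per gene, the one with the highest mean, among 13165 genes with a probe set at or above the median. In this fit 35% of genes were higher and 28.8% lower. Listed genes that entered it are called measured below. Those with only dimmer probe sets, or with none of their own, are not. Of the 10 genes, 8 had such a probe set, and all 8 had a lysate mean above the median too. ANK1, ANK2, ANK3, ANKRD11, ANKRD17, L1CAM and NRCAM were higher there, and NFASC was not called (0.16). The changes are those of the probe sets given above and no further evidence. NRCAM 204105_s_at, with its change of 0.48, passed here (limma, adjusted p = 0.00988) but not over all probe sets (adjusted p = 0.0632). CHL1 was too dim to enter, as was the only probe set that names ANKHD1 alone. Brighter probe sets that list ANKHD1 together with another gene, such as 208772_at (mean 10.20), were left out because they name several genes.

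Spectrins, adducins, protein 4.1 and tropomodulins form the membrane skeleton to which ankyrins attach. Of 15 measured genes of 19 listed, 11 were higher, 1 was lower and 3 were not called, with a median of 0.57 against 0.08 over all genes. SPTAN1, encoding the nonerythroid alpha spectrin chain, read 10.74 and 10.78 in the IP, against 8.39 and 8.50 in the lysate (change 2.32, adjusted p = 3.5e-05). Its other kept probe sets changed by -0.59 to 2.23. TMOD1, encoding a tropomodulin that caps actin filaments, changed by 1.45 (adjusted p = 9.6e-05). TMOD3, its paralog, read 6.89 and 6.63 in the IP and 8.25 and 8.25 in the lysate, a change of -1.49 (adjusted p = 6.1e-05). With hybridization control centring this list had 5 higher and 4 lower genes, where 2090 and 6388 of all 13165 genes were higher and lower. With the poly-A controls included it had 1 higher and 1 lower, where 403 and 2930 of all genes were higher and lower.

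Membrane proteins known to bind ankyrins, among them channels, pumps and adhesion molecules, were examined next. Of 10 measured genes of 21 listed, 4 were higher, a share near the 35% of all genes, 1 was lower and 5 were not called, with a median of 0.30. CDH1, encoding E-cadherin, read 8.38 and 8.60 in the IP, against 6.59 and 6.67 in the lysate (change 1.86, adjusted p = 3.5e-05). ITPR1, encoding an endoplasmic reticulum calcium release channel, changed by 1.56, with other kept probe sets at 0.91 to 1.52. CD44, encoding a hyaluronan receptor, changed by -0.67 (adjusted p = 0.00167), a call lost with the mean of its probe sets (-0.21).

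Among other axonal adhesion genes, 6 of 13 measured were higher, 1 was lower and 6 were not called, with a median of 0.22. Among the 6, DSCAM had a lysate mean of 4.62, under the array medians, so it entered through its IP signal. NCAM1, encoding the neural cell adhesion molecule, read 9.22 and 9.20 in the IP, against 7.74 and 7.73 in the lysate (change 1.48, adjusted p = 4e-05), and the netrin receptor gene NEO1 changed by 1.21. CNTNAP2, encoding a neurexin-like protein of the axonal membrane, read 4.64 and 4.48 in the IP and 5.66 and 5.87 in the lysate, a change of -1.21 (adjusted p = 1.4e-04). This probe set carries a suffix and its IP mean of 4.56 lay under the array medians. The other kept probe set of CNTNAP2 changed by -0.37. With unsuffixed probe sets only, 0 of 10 adhesion genes were lower. Of 31 measured genes whose symbol starts with ANKRD, a name shared by many unrelated proteins and here also by noncoding and pseudogene entries, 12 were higher, 8 lower and 11 not called, with a median of 0.16. ANKRD27, encoding an endosomal regulator of RAB proteins, changed by 1.59 and ANKRD33B by 1.44, and the noncoding ANKRD13C-DT changed by -1.85. The higher share in this list, 12 of 31, lay near the 35% of all genes. Among the 12, ANKRD44 had a lysate mean of 4.46, under the array medians, so it entered through its IP signal. Among the 8 lower genes, ANKRD22 had an IP mean of 4.49, also under them. With hybridization control centring the ANKRD list had 5 higher and 13 lower genes, the adhesion list 3 and 4, and the ankyrin-binding list 3 and 3. In that setting 2090 of all 13165 genes were higher and 6388 lower, so the lower counts are no result about these lists. With the poly-A controls included, 1 ANKRD gene, 1 ankyrin-binding gene and 0 adhesion genes were higher (limma), where 1 adhesion gene was higher at an unadjusted p under 0.05. In the same order 6, 1 and 1 were lower. Of all genes 403 were higher and 2930 lower in that setting. The calls of TMOD1, ITPR1, NCAM1, NEO1 and ANKRD33B were lost under that centring, with changes of 0.95, 1.06, 0.97, 0.71 and 0.94 (adjusted p = 0.0937, 0.0551, 0.0841, 0.235 and 0.0973). With the replicate number as a block, or without IP replicate 1, 3 adhesion genes were lower in place of 1.

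**Figure D4:**
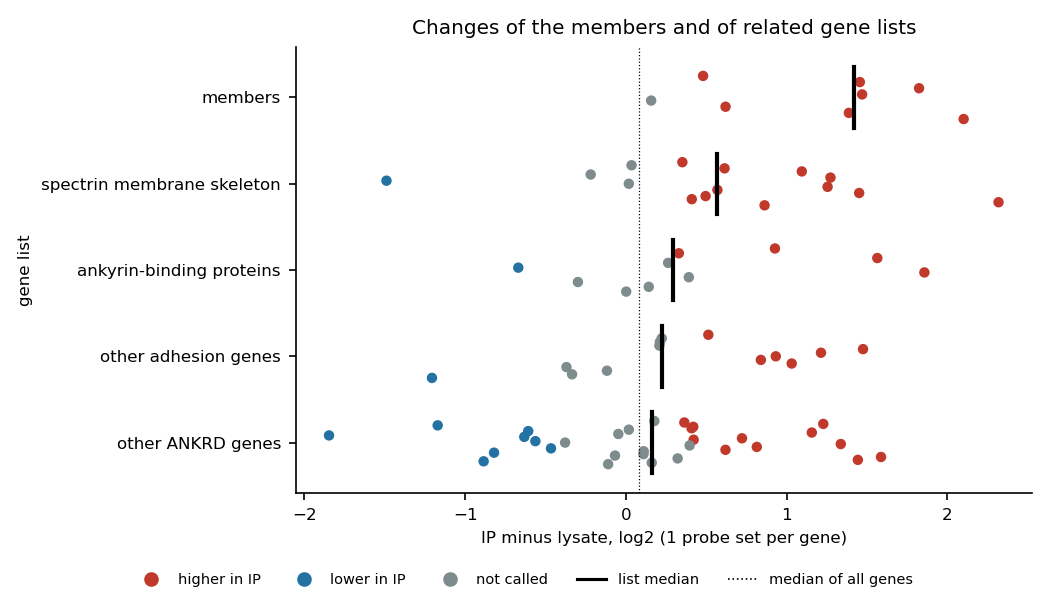
IP minus lysate change on the log2 scale (horizontal axis) of 1 probe set per gene in 5 gene lists (vertical axis). Red, blue and grey points are genes higher, lower and not called, black bars are list medians, and the dotted line is the median of all genes, 0.08. The 8 measured members lie at 0.16 to 2.10, and every other list has genes on both sides of 0.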

How the data were processed

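Per the labels' protocols, 2 µg of RNA per sample was labelled with biotin and hybridized to Affymetrix Human Genome U133 Plus 2.0 arrays. The authors deposited signals per probe set, which the range of values shows to be on a log2 scale. Per the sources used here, how the authors summarized and normalized them is not stated. Array medians of 4.67 to 4.71 show that the arrays had been scaled to each other. The platform annotation gave 1 symbol to 41091 of the 54675 probe sets, several to 1801 and none to 11721, and 62 were controls. Current names came from the GRCh38.p14 gene table, which matched 41037 of the first kind, and no coordinates are printed.

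IP minus lysate was fitted to all 54613 non-control probe sets with lmFit and eBayes of limma 3.58.1 (R 4.3.3; no covariate, 2 residual and 3.66 prior degrees of freedom, no filter on low values). A fit of 1 probe set per gene and a fit of differences between probe sets of a gene were made in the same way, each adjusted by Benjamini-Hochberg over its whole table at a threshold of 0.05. On simulated data the probe set fit, with 200 of 54613 changed, recovered 0% of changes of 0.5 or 1 on the log2 scale, 66% of changes of 2 and 88% of changes of 3, with 4 false calls. Far more probe sets were called in the data, so these shares do not carry over. Plots used matplotlib 3.10.9 and pandas 2.3.3.

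The members and lists were chosen with earlier results of these data known. All member probe sets are named in the text or its plots. From each other list the text names the 2 called genes that rose most and the 1 that fell most, provided that the groups did not overlap. It also names called genes of these lists with a group mean under the array medians. Alternatives covered the scaling, the filter, the probe set of a gene, its class, the spread estimate, the threshold, the replicate number as a block and leaving out each array. No mRNA or probe sequence was used.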

Additional observations from a re-analysis of the deposited data

How the results depend on the processing

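Quantile normalization changed no call of a member probe set or named gene. At a threshold of 0.01, 4066 probe sets were higher and 4254 lower, and 18 members were higher; no pair of probe sets of a gene was called (0 of all and 0 of the members', limma), where 8067 and 13 had an unadjusted p under 0.05. Of the 21 member probe sets without a suffix, 10 were higher, in 6 genes. When the fit of 1 probe set per gene was restricted to probe sets without a suffix, 4 member genes were higher, which tests fewer probe sets. Centring on hybridization and poly-A controls left 443 probe sets, 4 member probe sets, 403 genes and 2 member genes higher; the medians of these controls were 8.99 and 9.71 on the IP arrays and 8.67 and 9.03 on the lysate arrays, so they also differed within groups. Centring on hybridization controls gave 2995 higher and 17565 lower probe sets, 1 lower member, and 2090 higher and 6388 lower genes. Leaving out each array in turn gave 3869 to 7064 higher and 4171 to 7354 lower probe sets, 17 to 20 higher and 0 to 2 lower members, and 0 to 3259 called pairs, of which 0 to 7 were members', on fewer arrays. The lowest counts came without lysate replicate 1 (3869 higher probe sets) or lysate replicate 2 (4171 lower), and the 2 lower members without IP replicate 2. With the replicate number as a block, 22 members were higher and 7 member pairs differed; ANK1 240363_at then passed (adjusted p = 0.0292). Deviations of same-numbered arrays hardly correlated (r = 0.0029), and the labels do not say that a number pairs the samples.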

Other observations

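Beside the 1 dim probe set that names ANKHD1 alone, 5 probe sets list ANKHD1 together with the readthrough gene ANKHD1-EIF4EBP3, and 1 of these also lists EIF4EBP3. They name no single gene and were counted among all probe sets above, but not among the members, genes or pairs. Among them 208772_at read 10.53 and 10.63 in the IP, against 9.83 and 9.82 in the lysate, a change of 0.76 (limma, adjusted p = 0.0122). On 219081_at the signal changed by 0.83 (adjusted p = 0.013), and on 214919_s_at, the one that also lists EIF4EBP3, by 1.14 (adjusted p = 0.0039). The other probe sets of this locus, 208773_s_at and 233292_s_at, had differences of 0.45 and -0.59 and were not called (adjusted p = 0.0692 and 0.07).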
